A study of Bos taurus with 10 samples.

Results

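Secreted antimicrobial and chitinase-like proteins, 10 listed genes, were followed in bovine mammary tissue: CHI3L1, GNLY, LPO, LTF, PGLYRP1, DEFB1, DEFB10, LAP, TAP and BPI. All probe sets with 1 of these genes as their only symbol in the platform annotation were taken, whatever their signal, which gave 10 probe sets for 9 genes among 24016 probe sets of the array. DEFB1 had no such probe set and was not analysed here. LTF was measured by 2 probe sets and each other gene by 1. The samples were 10 arrays, 1 per cow, from primiparous German Holstein Frisian cows in mid lactation whose oestrus had been synchronized with cloprostenol and which had been milked out with oxytocin. In the neighboring group (5 cows), another gland of the same udder had received about 500 CFU of the mastitis isolate E. coli 1303 in 2 ml saline, and tissue was taken after 24 h from glands that had received no bacteria. Per the methods, arrays neighboring 1, 2, 3 and 5 were pools of a saline-treated and an untreated gland, and neighboring 4 was a single untreated gland. The control group (5 cows) was healthy, with no gland inoculated. Per the paper, control samples likewise combined tissue of 2 glands of each cow. The study left neighboring 5 (called a biological outlier) and control 3 (a technical outlier) out of its test, so the test below used 4 arrays per group and the values of the other 2 arrays stand beside it.

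These proteins form part of the chemical defense of the gland. Lactoperoxidase (LPO) oxidizes thiocyanate with hydrogen peroxide to products that are toxic to bacteria, and lactoferrin (LTF) binds iron; both are secreted into milk by the epithelium, and lactoferrin is also stored in neutrophil granules. Beta-defensins (DEFB10, LAP, TAP) are short cationic peptides of epithelia that damage bacterial membranes. BPI binds lipopolysaccharide and PGLYRP1 binds peptidoglycan, and both are neutrophil granule proteins. GNLY, granulysin, is a membrane-lytic protein of cytotoxic granules of T and NK cells. CHI3L1 is a glycoprotein of the chitinase family that binds chitin but does not cleave it, made by macrophages, neutrophils and epithelia during inflammation.

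In neighboring tissue CHI3L1 rose most, GNLY rose less and LPO rose slightly, while lactoferrin, the beta-defensins and the neutrophil granule proteins did not pass the test. At an adjusted p under 0.05 (limma, Benjamini-Hochberg over all 24016 probe sets), 3 of the 10 member probe sets rose, 0 fell and 7 did not pass. Of all probe sets 20.3% passed, 11.1% with higher and 9.21% with lower values in neighboring tissue. On all 10 arrays 2 member probe sets passed, both higher, against 6.90% of all probe sets, or 3.86% when only higher ones are counted. The median difference of the member probe sets was 0.33 on the log2 scale, beside -0.04 over all probe sets.

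**Figure D1:**
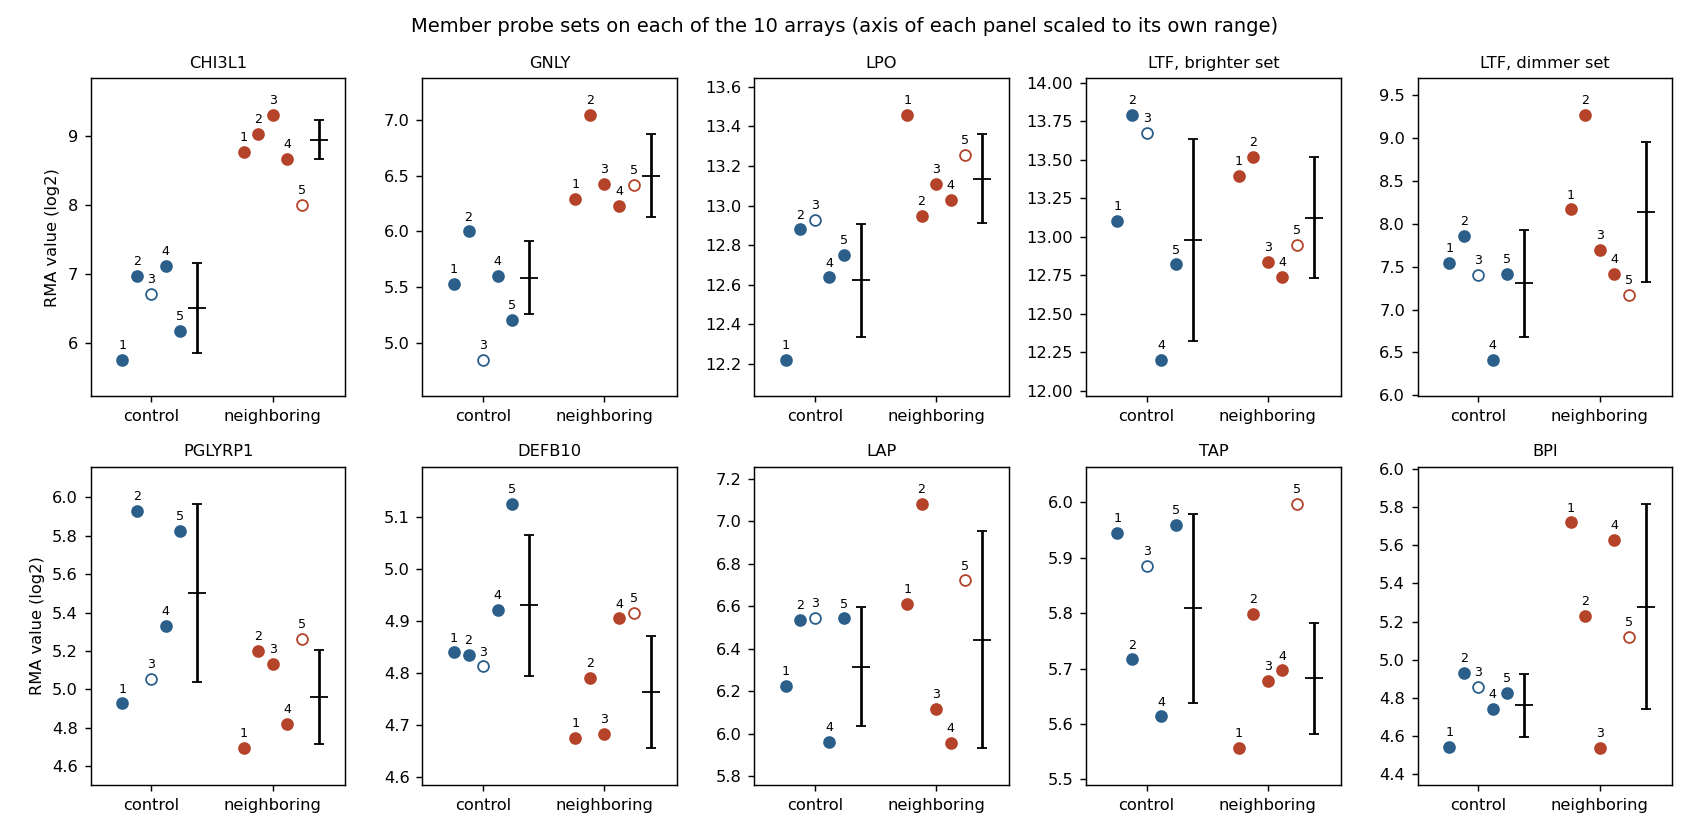
RMA values (log2 scale, a separate axis per panel) of the 10 member probe sets on each array, each point with its replicate number. Filled symbols are the 8 tested arrays, open symbols are neighboring 5 and control 3, and the black bar is the mean ± SD of the 4 filled symbols. The 5 neighboring arrays lie above the 5 control arrays for CHI3L1, GNLY and LPO, and the groups overlap in the other panels.

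CHI3L1 read 8.77, 9.02, 9.30 and 8.66 on neighboring 1 to 4 (log2 RMA values) and 7.99 on neighboring 5. In the controls it read 5.76, 6.97, 7.12 and 6.17 on arrays 1, 2, 4 and 5, and 6.71 on control 3. Every neighboring array lay above every control array, neighboring 5 included, although that array was the lowest of its group. CHI3L1 thus rose 5.39-fold (95% confidence interval 3.56 to 8.17, limma adjusted p = 0.000387), from 6.50 ± 0.65 to 8.94 ± 0.28 (SD, n = 4). It was the 1 member past the threshold of the study, more than 2-fold at an adjusted p below 0.01, which 1.87% of all probe sets passed. On all 10 arrays the rise was 4.60-fold (adjusted p = 0.00557), and in the 8 fits that left out 1 array the log2 difference ran from 2.18 to 2.64.

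GNLY read 6.30, 7.05, 6.43 and 6.23 on neighboring 1 to 4 and 6.42 on neighboring 5. The controls read 5.53, 6.00, 5.60 and 5.21 on arrays 1, 2, 4 and 5, and 4.85 on control 3. The groups did not overlap, and neighboring 2 stood above its group while control 3 was the lowest of all. GNLY rose 1.88-fold (1.39 to 2.55, adjusted p = 0.00997), from 5.59 ± 0.33 to 6.50 ± 0.37 (SD, n = 4), and 2.06-fold on all 10 arrays (adjusted p = 0.0245). The study named GNLY in its systemic response on these samples, so this rise is not independent of that choice. A further 2 probe sets list GNLY together with LOC104968634, from which 1 gene that is not protein-coding separates it in the reference gene table, and cannot be assigned to either. One of them read 6.91 to 7.91 on neighboring 1 to 4 and 6.04 on neighboring 5, against 5.03 to 6.16 in the 5 controls. The other read 6.86 on neighboring 5 and up to 8.26 on the rest of its group, against 5.45 to 6.73 in the controls. Their differences were 1.47 ± 0.21 and 0.97 ± 0.24 (log2, SE), so these sets were higher as well.

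LPO read 13.46, 12.95, 13.11 and 13.03 on neighboring 1 to 4 and 13.26 on neighboring 5. The controls read 12.22, 12.88, 12.64 and 12.75 on arrays 1, 2, 4 and 5, and 12.93 on control 3. All neighboring arrays were above all controls, but the gap between neighboring 2 and control 3 was small. LPO rose 1.43-fold (1.12 to 1.81, adjusted p = 0.0408), from 12.62 ± 0.28 to 13.14 ± 0.22 (SD, n = 4). The call was lost on all 10 arrays (0.48 ± 0.14, adjusted p = 0.0607) and without neighboring 1 (adjusted p = 0.0905), neighboring 3 (0.0821), neighboring 4 (0.0586), control 1 (0.0911), control 4 (0.0772) or control 5 (0.0591). Its probe set lay near the top of the signal range, at the percentile 99.8 of all probe sets, where RMA compresses differences.

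Groups that did not overlap over the 8 arrays were found for 3 of 10 member probe sets, all with neighboring higher, beside 25.4% of all probe sets, 12.7% with neighboring higher. Over all 10 arrays the same 3 did not overlap, beside 5.89% of all probe sets, 2.68% with neighboring higher. The hybridization controls, read by 18 probe sets, are transcripts added for the hybridization and not RNA of the tissue or of the infection. They were read lower on most neighboring arrays: 10.20 to 10.43 on neighboring 1 to 4 and 10.42 to 10.84 on the controls of the fit, with 10.65 on neighboring 5 and 10.64 on control 3. With this signal as a covariate, CHI3L1 differed by 1.46 ± 0.32 (log2, SE, adjusted p = 0.0647), GNLY by 0.84 ± 0.36 (adjusted p = 0.301) and LPO by 0.25 ± 0.26 (adjusted p = 0.736), and 206 of all probe sets passed. The covariate runs almost parallel to the groups, so its part and that of the groups cannot be told apart.

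**Figure D2:**
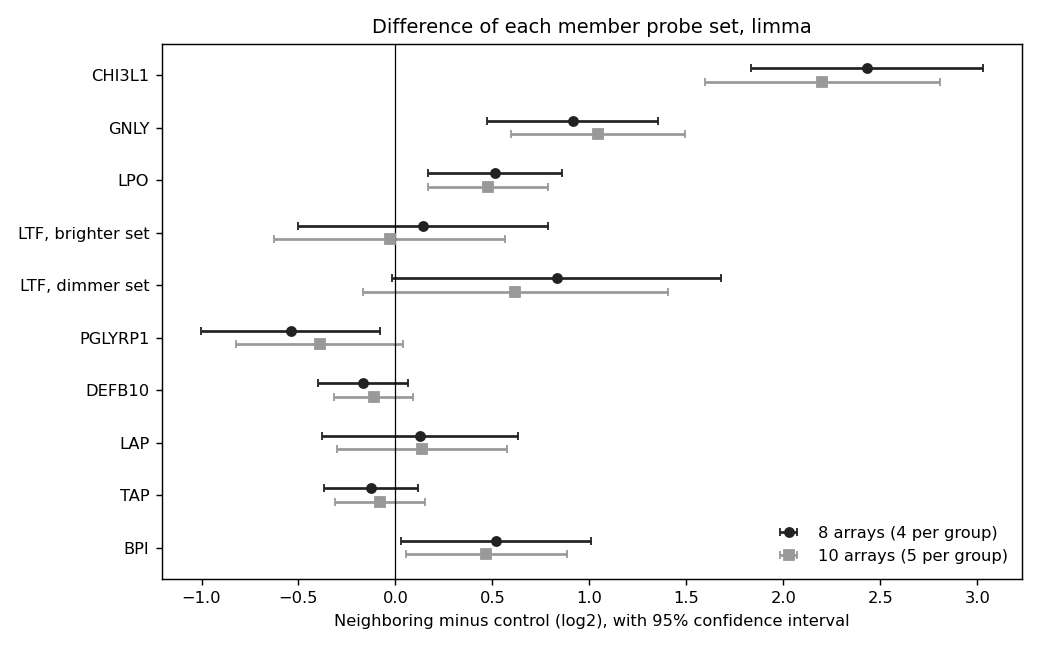
Difference between neighboring and control (log2, x axis) of each member probe set, with its 95% confidence interval from limma, over the 8 arrays of the fit (black circles) and over all 10 arrays (grey squares). CHI3L1 lies at 2.43 and 2.20, and the intervals of LTF, DEFB10, LAP and TAP include 0 in both fits.

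Neither lactoferrin probe set passed the test. The brighter of the LTF sets read 13.40, 13.52, 12.84 and 12.74 on neighboring 1 to 4 and 12.95 on neighboring 5. The controls read 13.11, 13.79, 12.20 and 12.82 on arrays 1, 2, 4 and 5, and 13.68 on control 3. The control values enclosed all neighboring values. Like LPO, this set lay near the top of the signal range, at the percentile 99.8 of all probe sets, where RMA compresses differences. The difference was 0.14 ± 0.29 (log2, SE), with an interval from -0.50 to 0.79 (adjusted p = 0.752). Its sign turned on all 10 arrays (-0.03 ± 0.27) and without control 4 (-0.11 ± 0.25).

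The dimmer LTF set read 8.17, 9.27, 7.69 and 7.42 on neighboring 1 to 4 and 7.18 on neighboring 5. The controls read 7.54, 7.86, 6.42 and 7.41 on arrays 1, 2, 4 and 5, and 7.41 on control 3. In both probe sets neighboring 2 was the highest of its group, control 2 the highest control and control 4 the lowest control. This set differed by 0.83 ± 0.39 (log2, SE, interval -0.016 to 1.68, adjusted p = 0.147) and by 0.62 ± 0.36 on all 10 arrays (adjusted p = 0.283), and the groups overlapped. Without neighboring 2 the difference was 0.45 ± 0.30, the lowest of the fits without 1 array, which reached up to 1.07. The 2 sets gave different estimates for one gene, but their intervals overlapped and the 2 estimates were not compared in a test.

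No beta-defensin passed the test. The lingual antimicrobial peptide LAP read 6.61, 7.08, 6.12 and 5.96 on neighboring 1 to 4 and 6.72 on neighboring 5. The controls read 6.23, 6.54, 5.96 and 6.54 on arrays 1, 2, 4 and 5, and 6.54 on control 3. Neighboring 1, 2 and 5 were above all controls and neighboring 4 was level with control 4, the lowest control. LAP differed by 0.13 ± 0.23 (log2, SE, adjusted p = 0.723), with an interval of the fold from 0.77 to 1.55, and by -0.09 ± 0.19 without neighboring 2. As in the dimmer LTF set, the highest LAP value of the series was that of neighboring 2, and control 4 was the lowest control.

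The tracheal antimicrobial peptide TAP ran from 5.56 to 5.80 on neighboring 1 to 4, with 6.00 on neighboring 5, and from 5.61 to 5.96 in the 5 controls. Its fold had an interval from 0.77 to 1.08 (adjusted p = 0.436). DEFB10 ran from 4.67 to 4.91 on neighboring 1 to 4, with 4.92 on neighboring 5, and from 4.81 to 5.13 in the 5 controls, with a fold interval from 0.76 to 1.05 (adjusted p = 0.277). Both were read low on the array, TAP at the percentile 41.4 and DEFB10 at 26.5 of all probe sets, where RMA compresses differences. The other beta-defensins on the array, DEFB4A (2 probe sets), DEFB13 and EBD, did not pass either. DEFB4A was read at 0.47 ± 0.19 (log2, SE, adjusted p = 0.101) by its brighter set and 0.20 ± 0.21 by the other. Over the 6 genes and 7 probe sets of the family 0 passed, with 2 at an unadjusted p under 0.05, DEFB4A higher and DEFB13 lower, and the highest upper bound of a fold was 1.84. By gene order in the RefSeq annotation, 14 genes lie between TAP and LAP and 7 between LAP and DEFB10. Members of such a family are alike in sequence, and signal from a close relative cannot be told apart from that of the named gene.

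BPI and PGLYRP1, proteins of neutrophil granules, had differences of opposite sign that did not pass. BPI read 5.72, 5.23, 4.53 and 5.63 on neighboring 1 to 4 and 5.12 on neighboring 5. The controls read 4.54, 4.93, 4.74 and 4.82 on arrays 1, 2, 4 and 5, and 4.86 on control 3. All neighboring arrays but neighboring 3 were above every control, while neighboring 3 was level with control 1, the lowest control. BPI differed by 0.52 ± 0.22 (log2, SE, adjusted p = 0.122), and by 0.77 ± 0.15 without neighboring 3 (adjusted p = 0.0104).

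PGLYRP1 read 4.69, 5.20, 5.13 and 4.82 on neighboring 1 to 4 and 5.26 on neighboring 5. The controls read 4.93, 5.93, 5.33 and 5.83 on arrays 1, 2, 4 and 5, and 5.06 on control 3. Control 1 and control 3 lay within the neighboring range and the other controls above it. PGLYRP1 differed by -0.54 ± 0.21 (log2, SE, adjusted p = 0.0911), and by -0.73 ± 0.18 without control 1 (adjusted p = 0.0225). BPI, PGLYRP1 and DEFB10 were the 3 member probe sets among the 40% with the lowest mean signal.

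Markers of the cells that make these proteins were read on the same arrays. Of all 9155 named genes, 15.4% rose and 9.67% fell, the shares to set beside the counts of this and the following lists. Of 18 listed neutrophil markers other than the members, 9 were measured and 0 of them rose or fell (limma), with 2, FCGR3A and MPO, lower at an unadjusted p under 0.05. All 9 were among the 40% of probe sets with the lowest signal. S100A8 and S100A12, given below with the other antimicrobial genes, were not on this list, and both rose. S100A9, also not on this list, did not pass (0.17 ± 0.11, log2, SE, by its brightest probe set). For the 9 neutrophil markers, the summed linear signal ran from 242 to 310 on neighboring 1 to 4. It ran from 260 to 302 on the controls of the fit, so the groups overlapped. Of 17 T and NK cell markers measured, 0 rose and 7 fell, and all 17 differences were below 0. Over all 10 arrays, ZAP70 alone of the 17 passed, also lower. CD3E of the T cell receptor complex fell by 0.75 ± 0.16 (log2, SE), the kinase ZAP70 by 0.73 ± 0.21 and CD8B by 0.64 ± 0.15. The summed signal of these markers ran from 1269 to 1494 on neighboring 1 to 4 and from 1874 to 2304 on the controls of the fit, with 1987 on neighboring 5 and 2048 on control 3. GNLY rose on the same arrays, and on neighboring 5 GNLY lay above all controls while the marker sum lay within the control range. In whole tissue, fewer cells of a type and less RNA per cell cannot be told apart.

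**Figure D3:**
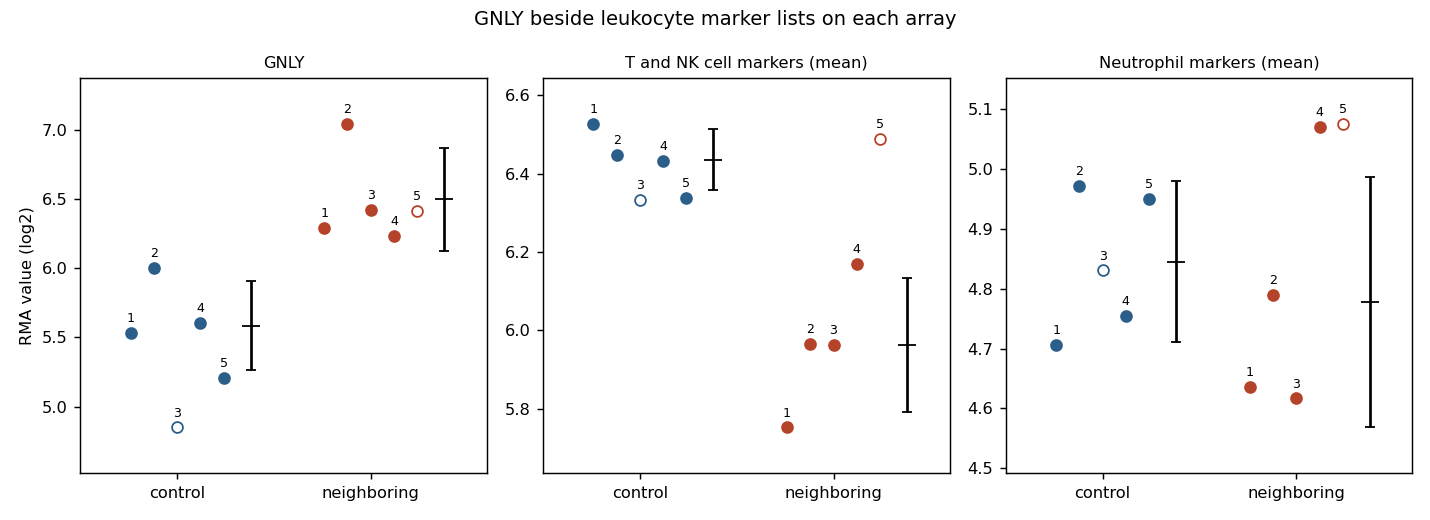
RMA value (log2) of GNLY, and the mean log2 value of 17 T and NK cell markers and of 9 neutrophil markers, on each array, with replicate numbers. Open symbols are neighboring 5 and control 3, filled symbols are the tested arrays, and the bar is their mean ± SD. GNLY is higher and the T and NK cell mean lower on neighboring 1 to 4 (5.75 to 6.17 against 6.34 to 6.53), and the neutrophil means overlap.

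Of other markers, 2 of 7 macrophage genes fell: the scavenger receptor MSR1 fell by 1.90 ± 0.29 (log2, SE) and AIF1 fell by 0.67 ± 0.15. The other macrophage genes did not pass, 3 of the 7 differences were below 0, and the median was 0.098, with C1QB at 0.34 ± 0.19 and CD68 at 0.098 ± 0.188. Of 5 B and plasma cell genes 1 fell, CD79A by 0.41 ± 0.11. Of 12 luminal epithelial genes 2 rose and 1 fell, near the shares of all named genes. The keratin KRT19 rose by 1.10 ± 0.22, the adhesion protein EPCAM by 0.72 ± 0.09, and the mucin MUC1 fell by 0.66 ± 0.13. Of the 12, 11 lay above the lowest 40% of signal, among them the milk protein genes CSN1S1, CSN2, CSN3, LALBA and PAEP. Of 7 basal and myoepithelial genes 4 fell, led by CNN1 (by 1.35 ± 0.23), the oxytocin receptor OXTR (by 1.24 ± 0.11) and KRT17 (by 0.74 ± 0.17). Of 6 fibroblast genes 3 fell and 1, PDGFRA, rose. The falls were those of LUM, by 1.72 ± 0.17, COL3A1, by 0.95 ± 0.28, and COL1A1, by 0.70 ± 0.18. Of 6 endothelial genes 0 passed. Several of these calls were lost on all 10 arrays, those of AIF1 (adjusted p = 0.407), CD79A (0.181), KRT19 (0.0900), KRT17 (0.0515), ACTA2 (0.0677) and PDGFRA (0.0523), while MSR1, EPCAM, MUC1, CNN1, OXTR, LUM, COL3A1 and COL1A1 passed there too. The part of these shifts in the rises of CHI3L1, GNLY and LPO was not tested.

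Among the other secreted antimicrobial genes on the array, a few rose and most did not pass. Of 59 listed, 27 were measured: 4 rose, 1 fell and 22 did not pass, with a median difference of -0.06, beside 15.4% of 9155 named genes that rose, 9.67% that fell and a median of -0.0006. The calcium-binding proteins S100A8 (2.42 ± 0.26, log2, SE) and S100A12 (1.98 ± 0.28), the lipopolysaccharide-binding protein LBP (2.14 ± 0.43), a relative of BPI, and the chemokine CXCL14 (1.24 ± 0.22) rose, and the lectin REG3G fell by 0.43 ± 0.12. On all 10 arrays 3 passed, all higher, and LBP (adjusted p = 0.0938) and REG3G (0.0598) did not. S100A8, S100A12, LBP and CXCL14 were named by the study on these samples, so their rises are not independent of that choice. The calcium-binding proteins S100A9 (0.17 ± 0.11) and S100A7 (-0.13 ± 0.12) did not pass. The cathelicidins of neutrophil granules, CATHL1 to CATHL6 and CAMP, lay between -0.30 ± 0.19 (CATHL5) and 0.14 ± 0.23 (CATHL2), and the granule enzymes MPO (-0.25 ± 0.11) and ELANE (0.00 ± 0.10) did not pass. CATHL1, CATHL2, MPO and ELANE are also among the neutrophil markers above, so their values are the same readings. Single arrays differed from the group means. CATHL1 read 5.54 and 5.44 on neighboring 4 and 5, 3.41 to 3.79 on neighboring 1 to 3 and 3.62 to 4.79 in the controls. CATHL4 read 4.72 and 4.73 on neighboring 4 and 5, 3.88 to 4.09 on neighboring 1 to 3 and 3.90 to 4.38 in the controls.

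**Figure D4:**
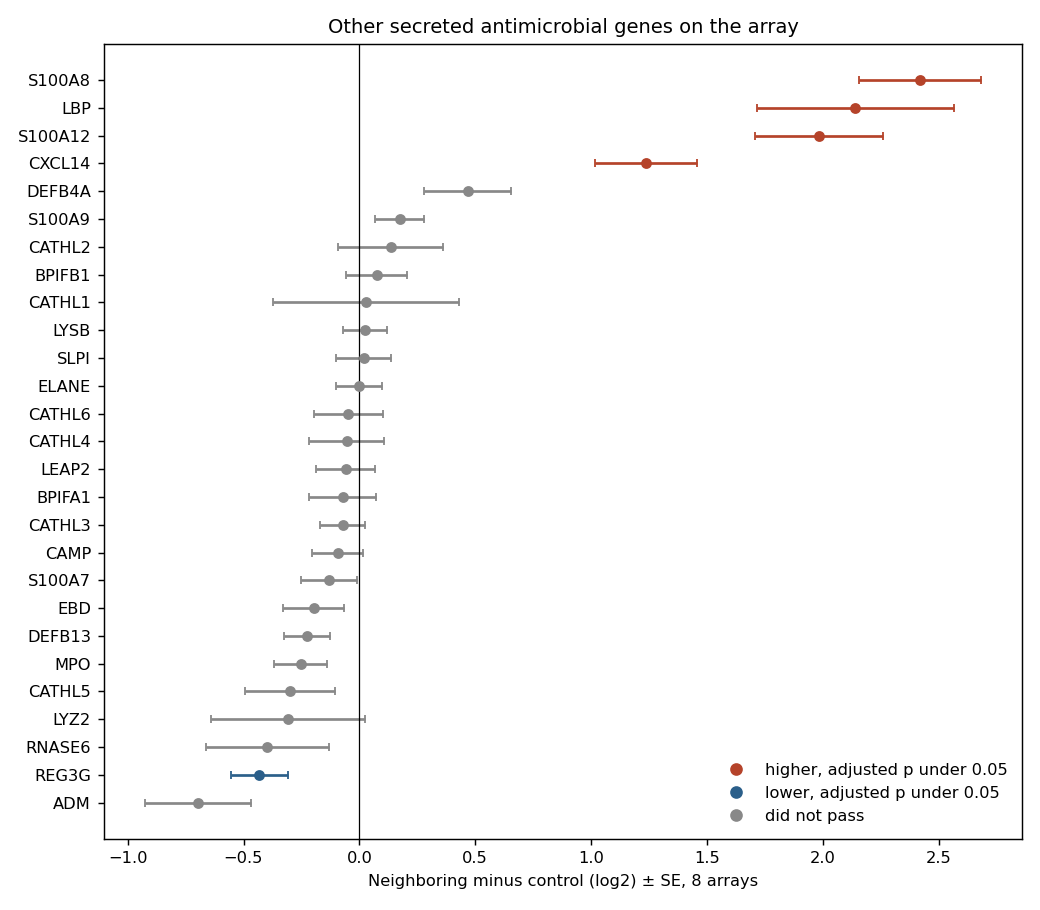
Difference between neighboring and control (log2, x axis) ± SE from limma over 8 arrays for 27 other secreted antimicrobial genes, each by its brightest probe set, in red where higher, blue where lower and grey where the test was not passed. The 4 higher genes lie between 1.24 and 2.42, apart from the other genes.

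No measured relative of CHI3L1 rose at the threshold of the test. Of 3 measured genes of its glycoside hydrolase family, CHID1, a chitinase domain protein of the lysosome, fell by 0.73 ± 0.13 (log2, SE, adjusted p = 0.00325), and CHIA, the acidic chitinase (-0.29 ± 0.12), and OVGP1 (-0.14 ± 0.11) did not pass. Of 6 cytotoxic granule genes beside GNLY, CTSC, the protease that activates granzymes and neutrophil serine proteases, rose by 0.69 ± 0.20 and the granule proteoglycan SRGN fell by 0.50 ± 0.16. The pore-forming perforin PRF1 (-0.21 ± 0.09), granzyme GZMB (-0.36 ± 0.14) and NKG7 (-0.49 ± 0.20) did not pass, each with a difference below 0. PRF1, GZMB and NKG7 are also among the T and NK cell markers above, so their values are the same readings. Neither CTSC nor SRGN passed on all 10 arrays.

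Of 15 listed genes of hydrogen peroxide and thiocyanate supply, which LPO depends on, 8 were measured, and of these 1 rose and 2 fell. DUOX1, DUOX2, DUOXA1, DUOXA2 and SLC26A4 were among the listed genes that had no probe set of their own. The mitochondrial superoxide dismutase SOD2 rose by 1.76 ± 0.18 (log2, SE), the extracellular dismutase SOD3 fell by 0.95 ± 0.12, and XDH, the xanthine dehydrogenase of milk fat globules, fell by 0.35 ± 0.11 (adjusted p = 0.0466). With all 10 arrays SOD2 passed (adjusted p = 0.0242), and SOD3 (0.0532) and XDH (0.0594) did not. The iodide and thiocyanate carrier SLC5A5 (-0.54 ± 0.18) and QSOX1 (0.53 ± 0.20) did not pass, and 6 of the 8 differences were below 0. Of 8 receptors and partners of the members 0 rose and 3 fell: CD14, which takes up lipopolysaccharide, by 1.08 ± 0.26, the transferrin receptor TFRC by 0.50 ± 0.15 and the prostaglandin D2 receptor PTGDR2 by 0.38 ± 0.12. In the fit of all 10 arrays CD14 passed (adjusted p = 0.0381), and TFRC (0.0741) and PTGDR2 (0.126) did not. TREM1, a receptor for PGLYRP1, differed by 0.21 ± 0.12 and TMEM219, a co-receptor for CHI3L1, by 0.01 ± 0.14, and neither passed. TLR2 (0.59 ± 0.21) did not pass either, and 4 of the 8 differences were below 0. TREM1 is also among the neutrophil markers above.

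Of 18 measured signalling genes known to act on antimicrobial genes, 3 rose and 0 fell, with a median difference of 0.16. Of all 9155 named genes 15.4% rose and 9.67% fell, so the count of rises was near the share of all genes. These were the transcription factors STAT3 (1.17 ± 0.24, log2, SE), CEBPD (0.83 ± 0.21) and NFKB2 (0.48 ± 0.11). The cytokines IL6 (0.38 ± 0.21), TNF (0.15 ± 0.14), IL1B (-0.06 ± 0.14) and IL17A (-0.13 ± 0.10) did not pass. On all 10 arrays none of the 3 passed, with adjusted p of 0.107 for STAT3, 0.252 for CEBPD and 0.0570 for NFKB2.

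Genes whose profile was closest to each risen member were found by the mean absolute difference of their log2 deviations from the control mean over the 10 arrays. For CHI3L1 these were the lysyl oxidase relative LOXL4 (0.32), the tryptophanyl-tRNA synthetase WARS1 (0.42) and the transcription factor ATF5 (0.44). For GNLY they were S100A2 (0.20), POP5, a subunit of ribonuclease P (0.21), and TIMD4, a phosphatidylserine receptor (0.25). For LPO they were the deoxyribonuclease DNASE1 (0.08), INTS4 of the integrator complex (0.11) and the lanosterol synthase LSS (0.13). The measure favours genes of like size of change.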

How the data were processed

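Mammary tissue RNA of 10 cows was amplified, labelled with biotin and read on Affymetrix Bovine Genome arrays, 1 array per cow. The deposited values are on the log2 scale, 1 per probe set and array, and were computed by the authors with RMA (background correction, quantile normalization, summary over the probes of a set), named in the submitters' processing notes without a version. Quantile normalization hides a shift shared by most transcripts, and RMA compresses differences at both ends of the signal range.

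Groups and replicate numbers came from the sample titles, since the source field of the controls repeats the wording of the neighboring samples. The 112 probe sets for array controls did not enter the tests. A single symbol was given for 13292 of the remaining 24016 probe sets, several for 86 and none for 10638. The RefSeq gene table (ARS-UCD2.0), used for names and gene order only, held 13263 of the 13292. Array medians lay between 6.25 and 6.27. Number of arrays limits the precision.

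Neighboring was compared with control by limma 3.58.1 in R 4.3.3 (lmFit, eBayes, Benjamini-Hochberg over all 24016 probe sets) on the 8 arrays of the study's test. The study's filter on present calls was not used here, since members were taken whatever their signal. Adjusted p, SE and 95% confidence intervals are limma's; means and SD are over 4 arrays. List genes were represented by their brightest probe set. Named were all members, up to 6 passing genes per related list, up to 3 per marker list, and the 3 nearest profiles; other genes named were chosen after their values were seen. Members and lists were chosen with earlier results of these data known. The procedure was tested on simulated data. Alternatives were the arrays entered, a filter, scaling, variance model, replicate block, hybridization controls as a covariate, and leaving out each array.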

Additional observations from a re-analysis of the deposited data

Results flagged for a closer look

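GNLY on neighboring 2 (7.05) stood above the other neighboring arrays (6.23 to 6.43), by a gap of 0.76 of the range of the 5 arrays, over the critical value of 0.71. It was 1 of 20 groups of 5 arrays looked at in this way, of which chance flags about 1. Neighboring 5 was outside the test, but read above all 5 control arrays in each of the 3 members that rose: CHI3L1 at 7.99 (controls 5.76 to 7.12), GNLY at 6.42 (controls 4.85 to 6.00) and LPO at 13.26 (controls 12.22 to 12.93).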

How the results depend on the processing

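The direction of CHI3L1, GNLY, LPO, BPI, PGLYRP1, DEFB10 and the dimmer LTF set was the same under each alternative that gave them a value (BPI, PGLYRP1 and DEFB10 give none without the 40% lowest). CHI3L1 and GNLY passed in 8 of 8 fits without 1 array and in 10 of 11 other settings, LPO in 2 of 8 and 4 of 11. LPO was lost with control 3 (adjusted p = 0.0563) or neighboring 5 put back alone (0.0603) and with cyclic loess (0.0899). The sign turned for the brighter LTF set on all 10 arrays (-0.030, also with the replicate block) and without control 4 (-0.11, range -0.11 to 0.41 without 1 array), for LAP without neighboring 2 (range -0.087 to 0.29 without 1 array) and for TAP with the hybridization controls as a covariate (0.16). None of these passed in either sign. Member probe sets that passed numbered 3, with 0 under that covariate, 2 to 3 under the other settings and 2 to 3 without 1 array.

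The replicate numbers do not pair cows, since the 2 groups were different cows. Deviations of same-numbered arrays in the test correlated at -0.0071, -0.048 and -0.065 across probe sets, and from -0.14 to 0.20 on all 10 arrays. These correlations cannot by themselves show or exclude a pairing. With the replicate block on 8 arrays the dimmer LTF set passed (1.01 ± 0.17, adjusted p = 0.0243) and LPO did not (0.56 ± 0.22, adjusted p = 0.180). That fit rests on replicates 1, 2 and 4 alone, the only numbers with an array of each group in the test. Since the numbers do not pair cows, nothing is concluded from these calls. Of all probe sets 4886 passed, with 1657 on all 10 arrays, 834 with neighboring 5 put back alone, 1488 with the replicate block (962 on 10 arrays), 206 with the covariate and 3157 (without neighboring 3) to 4364 without 1 array. The threshold of the study was passed by 449, and in the same settings by 17, 4, 135 (0 on 10 arrays) and 27, and by 355 to 514 without 1 array. Related genes that passed numbered 17, then 6, 5, 8 (6 on 10 arrays) and 3, and 11 (without neighboring 3) to 16 without 1 array. Marker genes numbered 21, then 9, 6, 9 (7 on 10 arrays) and 2, and 16 to 22 without 1 array; these marker runs were added after the data were seen. The causes were not tested.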
